A study of Mus musculus with 8 samples.

Results

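The genes described here are the cytosolic ribosomal protein genes, which encode the protein components of the ribosomes outside mitochondria. Members were chosen by name, as rows whose symbol is Rpl or Rps with a number (with the usual suffixes), or Rpsa, Rplp0, Rplp1, Rplp2 or Fau, and by a count of 10 or more in at least 4 of 8 libraries. Of 24060 rows, 85 matched by name and 82 met the count rule. They comprise 42 core genes of the large subunit, 32 core genes of the small subunit, 3 stalk genes and 5 paralogues. The low-count filter of the test kept 81 of them and removed Rpl3l, which had 3 to 19 counts per library. The 3 rows outside the count rule were Rpl10l, at 0 in every library, Rpl39l, with at most 4 counts, and Rpl26, a core gene with 1 count in control library 2 and 0 elsewhere.

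Each ribosome joins a large and a small subunit, and each subunit is built in the nucleolus from ribosomal RNA and one copy of nearly every ribosomal protein. A mouse makes most of these proteins from a single intron-containing gene, while the genome also carries many processed pseudogenes that resemble their messenger RNAs. Ribosomal protein messages typically begin with a C followed by a run of pyrimidines, the terminal oligopyrimidine or TOP motif, through which mTORC1 and the RNA-binding protein Larp1 control their translation. Neurons are rich in ribosomes, seen in stained tissue as Nissl substance, and Aldh1l1-expressing astrocytes are one of several cell types in the cerebellum.

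Bulk RNA from whole cerebellum of 8 mice was sequenced, with 4 mice per group and each sample from its own mouse. The 4 bigenic mice carried the CalExflox allele and Aldh1l1-Cre/ERT2, in which the astrocyte gene Aldh1l1 directs a Cre that tamoxifen switches on, and the 4 control mice carried CalExflox alone. CalExflox places a plasma membrane calcium pump under control of Cre recombination. Both groups received 1 dose of tamoxifen (75 mg/kg, intraperitoneal, dissolved in corn oil at 25 mg/ml). Cerebella were collected 5 days later. Age and sex were not given. Cre was present only in the bigenic mice, so the effects of Cre and of the pump cannot be told apart, and the construct itself has no row in the tables.

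The libraries held 35208460 to 38293012 counted reads. Cerebellar identity was plain in all 8: the granule cell gene Gabra6 lay between 676 and 1522 CPM (counts scaled to a common library size) and the Purkinje cell gene Pcp2 between 541 and 676 CPM. The 15 astrocyte and Bergmann glia markers summed to 14075 to 15703 CPM in the bigenic libraries and 11101 to 11661 CPM in the controls, with 9 of 15 higher and 2 lower. Choroid plexus RNA differed between mice: the summed level of its markers was 80.7 to 89.0 CPM in the bigenic libraries against 408, 2664, 3309 and 76.4 CPM in control libraries 1 to 4. Its defining marker, Ttr, had 300.2, 2360, 2961 and 2.76 CPM in the controls and at most 4.62 CPM in the bigenic libraries. Because the tissue is bulk, fewer cells of a type and less RNA per cell cannot be told apart.

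The start sites of a few members are shown, some with a long run of C or T and some without one in the window. Each line gives 30 bases of the RefSeq promoter table (build GRCm38.p6), read in the direction of the gene, from 10 bases before its start to 20 after it, with the longest run of C or T in capitals. Rps27, Rps15a and Rpl38 are shown as higher genes that start at a C in a run, Rpl27a as the core gene that was lower, Rpl5 and Rpl24 as higher genes with no long run here, and Rpl7l1 as the lower paralogue. Rpl5 does have a run of 9 within 50 bases of its start, not contained in this window, and is counted below as having a long run. The windows lie at chr3:90213629-90213658 (minus strand, Rps27), chr7:118116128-118116157 (minus, Rps15a), chr11:114668570-114668599 (plus, Rpl38), chr7:109519185-109519214 (plus, Rpl27a), chr5:107900518-107900547 (plus, Rpl5), chr16:55966265-55966294 (plus, Rpl24) and chr17:46782637-46782666 (minus, Rpl7l1).
Rps27: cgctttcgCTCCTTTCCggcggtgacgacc
Rps15a: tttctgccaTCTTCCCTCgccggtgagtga
Rpl38: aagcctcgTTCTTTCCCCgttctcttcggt
Rpl27a: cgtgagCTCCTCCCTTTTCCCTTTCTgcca
Rpl5: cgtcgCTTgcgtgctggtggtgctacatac
Rpl24: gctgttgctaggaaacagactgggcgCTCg
Rpl7l1: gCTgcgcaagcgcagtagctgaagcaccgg

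Of the 82 members, 61 had an entry in the promoter table. A run of 8 or more C or T within 50 bases of the start was present in 51 of 61 (83.6%), against 39.3% of 27025 genes, and a start at a C followed by 4 more C or T in 14 (23.0%), against 3.01%. Over the 300 bases of the table, searched on both strands, the ETS-family sequence CCGGAAGT occurred in 11 members (18.03% against 4.31%), the YY1-type sequence AAGATGGC in 7 (11.5% against 3.19%) and TATAAA in 7 (11.5% against 15.7%). The motifs were counted separately and may overlap by a few bases. Of the 50 tested members with a long pyrimidine run, 20 were higher in bigenic libraries and 1 lower, with a median log2 fold change of 0.29. Of the 10 without one, 2 were higher and 1 lower, with a median of 0.21. Of all 15186 genes tested, not split by such a run, 21.4% were higher and 22.9% lower. The 2 proportions were not tested against each other, and 10 members are too few to compare.

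Ribosomal protein genes were more often higher than lower in bigenic cerebellum, by small amounts. With libraries scaled by TMM, which assumes that most genes do not differ, 33 of 81 members were higher (40.7%) and 2 were lower at an adjusted p under 0.05, beside 21.4% higher and 22.9% lower of the 15186 genes tested. The other 46 did not pass the test. The median log2 fold change of the members was 0.28, with 74 of 81 positive, and that of all genes tested was 0.00. The increases were small: the median of the 33 higher genes was 0.38 on the log2 scale, and the highest was 1.28 (Rps27).

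Library scaling changed these counts. When libraries were scaled by their total counts, 19 members were higher and 3 lower, beside 16% higher and 28.8% lower of all genes, and the median log2 fold change of the members fell to 0.19 with 71 of 81 positive. The median of all genes moved by the same step, from 0.00 to -0.09 (a shift of -0.085), so the members' median lay 0.28 above that of all genes under either scaling. All 19 genes that were higher by total counts were also higher by TMM, and 14 were higher by TMM only. Groups did not overlap for 27 higher and 2 lower members by TMM (19.4% and 21.4% of all genes) and for 13 and 2 by total counts (13.9% and 27.2%). CPM values below are TMM-scaled, fold changes are bigenic over control, and the value by total counts is given where the call changed.

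**Figure D1:**
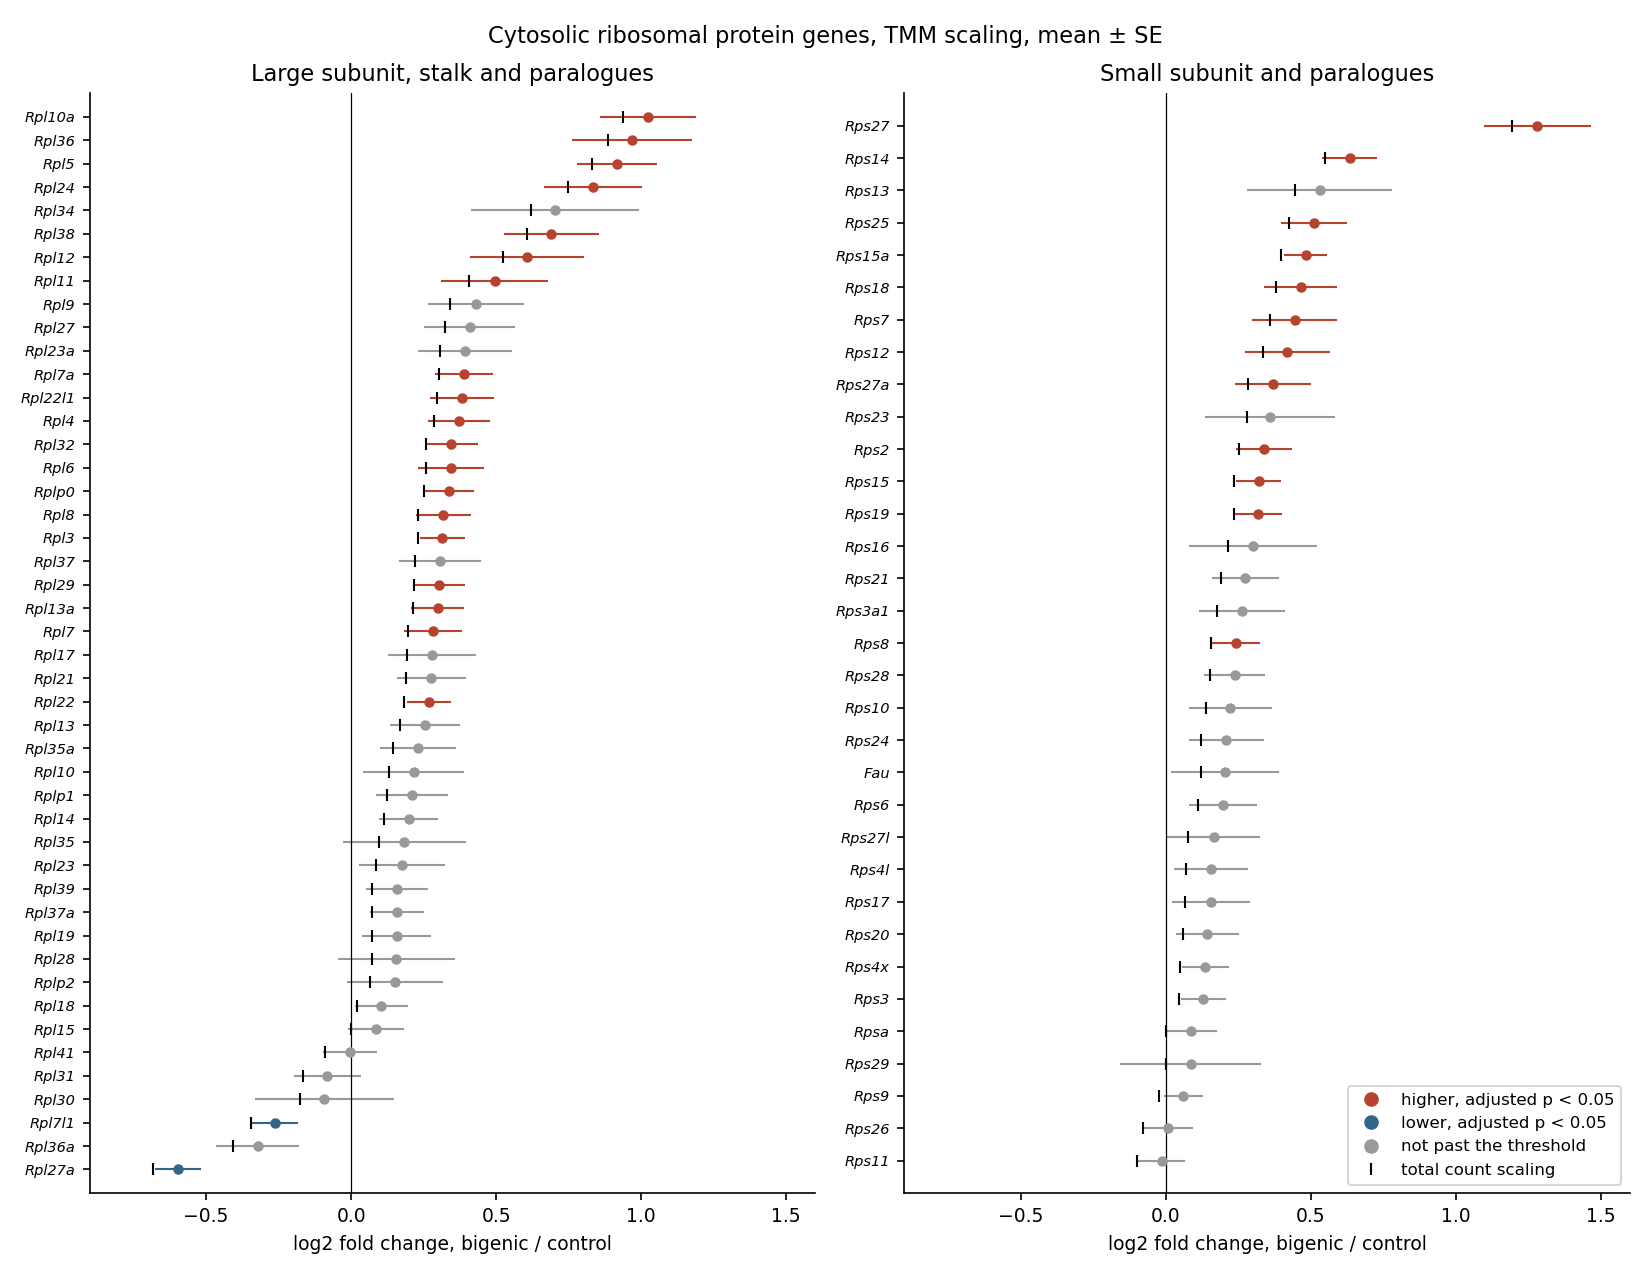
Log2 fold change (bigenic over control; point and bar, TMM estimate and its standard error; black tick, estimate with total-count scaling) of all but a few tested members, in one panel for the large subunit and one for the small subunit, with red for higher, blue for lower and grey for members that did not pass the threshold. Most points lie right of 0, and Rpl27a and Rpl7l1 are the members called lower.

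Among the 42 core genes of the large subunit, 18 were higher and 1 lower, with a median log2 fold change of 0.29 (10 higher and 2 lower by total counts). Rpl5, on chromosome 5 (107900502 to 107909005, plus strand, GRCm38), binds the small ribosomal RNA of the large subunit together with Rpl11 and, outside the ribosome, binds Mdm2. It had 55.3, 45.4, 77.5 and 61.1 CPM in bigenic libraries 1 to 4 and 30.5, 30.5, 34.5 and 31.2 CPM in control libraries 1 to 4. No bigenic library came down to the controls, and the fold change was 1.89 (log2 0.92 ± 0.14 SE, adjusted p = 0.00038). The gene overlaps Fam69a on the other strand and holds Snord21, a small nucleolar RNA gene. Only 7.51% of the 75-base windows of its transcript were found in no other gene's transcript, so some of its reads could belong to copies.

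Rpl10a, a protein of the mobile L1 stalk of the large subunit, lies on chromosome 17 (28328471 to 28331033, plus strand). Its levels were 5.16, 4.38, 4.94 and 4.59 CPM in the bigenic libraries and 2.95, 2.46, 1.97 and 1.99 CPM in the controls. All 4 bigenic libraries lay above all 4 controls, a fold change of 2.03 (log2 1.02 ± 0.17, adjusted p = 0.00059), at a mean of only 129 counts per library. Rpl24, which helps bridge the subunits, had 3.79, 2.73, 4.13 and 3.84 CPM against 1.93, 2.03, 1.94 and 2.22 CPM (log2 0.83 ± 0.17, adjusted p = 0.0023). Rpl36 had 15.4, 9.71, 10.9 and 13.6 CPM against 9.11, 6.05, 4.82 and 5.38 CPM (log2 0.97 ± 0.21, adjusted p = 0.0031), and the gap between the lowest bigenic and the highest control library was narrow. The transcript windows found in no other gene were 12.4% for Rpl10a, 19.1% for Rpl24 and 29.1% for Rpl36, so some of their reads could also belong to copies.

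The lower core gene was Rpl27a, on chromosome 7 (109519147 to 109522367, plus strand), which encodes a large subunit protein and holds the small nucleolar RNA gene Snora3. It had 23.3, 24.0, 24.8 and 22.8 CPM in the bigenic libraries and 33.5, 34.9, 36.9 and 38.1 CPM in the controls. The 4 bigenic values were close together and well below every control, with a fold change of 0.661 (log2 -0.60 ± 0.08, adjusted p = 0.00017; -0.68 by total counts, adjusted p = 8e-05). Of its transcript windows, 65.6% were found in no other gene. Rpl36a, the X-linked gene called lower by total counts only, had 4.22, 4.00, 4.34 and 4.87 CPM against 4.35, 5.56, 5.60 and 6.28 CPM. The groups overlapped, and its log2 fold change was -0.32 ± 0.14 by TMM (adjusted p = 0.089) and -0.41 by total counts (adjusted p = 0.042). Rpl36a, Rpl38, Rpl4 and Rps3 are named outside the rule for named genes, after their values were seen.

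The most abundant large subunit genes had smaller fold changes than Rpl5, Rpl10a, Rpl24 and Rpl36, which were named for their small p. Rpl8, Rpl32 and Rpl4 lay slightly above the large subunit core median of 0.29 on the log2 scale. Across the 81 tested members, Spearman's correlation of mean count with log2 fold change was -0.19. By mean deposited FPKM, a level per length, the order in the large subunit was Rplp1 (449), Rpl8 (367) and Rpl32 (322). Rpl8 had 367, 285, 367 and 388 CPM in the bigenic libraries and 284, 292, 261 and 292 CPM in the controls. Bigenic library 2 lay among the controls, and the log2 fold change was 0.32 ± 0.09 by TMM (adjusted p = 0.018) and 0.23 by total counts (adjusted p = 0.071). Rpl32 had 176, 156, 207 and 191 CPM against 133, 139, 150 and 153 CPM (log2 0.35 ± 0.09, adjusted p = 0.0098), with all bigenic libraries above the controls. Rpl4, first by raw count with a mean of 14852 per library, had 428, 376, 538 and 494 CPM against 324, 340, 369 and 386 CPM. Its groups overlapped in bigenic library 2 (log2 0.37 ± 0.11, adjusted p = 0.015). Rpl38, a protein known from the tail short mouse for its part in translating Hox messages, had 2.48, 2.25, 2.42 and 2.17 CPM against 1.37, 1.56, 1.44 and 1.39 CPM (log2 0.69 ± 0.16, adjusted p = 0.0056).

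Among the 32 core genes of the small subunit, 13 were higher and 0 lower, with a median log2 fold change of 0.27 and 31 of 32 positive (8 higher and 0 lower by total counts). Rps27, a zinc finger protein of the small subunit on chromosome 3 (90212522 to 90213651, minus strand), moved most. It had 3.05, 3.03, 4.28 and 4.03 CPM in the bigenic libraries and 1.37, 1.49, 1.30 and 1.74 CPM in the controls. The groups were far apart, with a fold change of 2.43 (log2 1.28 ± 0.19, adjusted p = 0.0003). Its mean of 91.6 counts per library was small, and 4 of its 271 transcript windows were found in no other gene.

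Rps14, a protein of the small subunit platform, combined a clear difference with deep coverage. It had 165, 127, 158 and 171 CPM in the bigenic libraries (155 ± 19.7 SD, n = 4) and 101, 103, 92.8 and 103 CPM in the controls (99.9 ± 4.93, n = 4). The groups did not overlap, with a fold change of 1.55 (log2 0.63 ± 0.09, adjusted p = 0.00035), and 80.2% of its windows were its own. Rps15a, on chromosome 7 (118104372 to 118116188, minus strand), had 143, 137, 161 and 142 CPM against 105, 99.1, 111 and 102 CPM (log2 0.48 ± 0.07, adjusted p = 0.00043). It overlapped no other gene, and 95.9% of its windows were found nowhere else.

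Rps25, used by some viral and cellular internal ribosome entry sites, had 47.0, 38.6, 55.4 and 54.3 CPM against 30.7, 34.3, 35.2 and 36.8 CPM (log2 0.51 ± 0.11, adjusted p = 0.0041). Rps15, whose tail reaches toward the decoding site, had 152, 135, 166 and 161 CPM against 117, 125, 120 and 130 CPM (log2 0.32 ± 0.08, adjusted p = 0.0064), with a FPKM of 264 that led the small subunit. In both genes every bigenic library lay above every control. Rps9, at a FPKM of 213, had 159, 148, 145 and 160 CPM against 143, 153, 138 and 152 CPM, and its log2 fold change of 0.06 ± 0.07 (adjusted p = 0.49) became -0.02 by total counts. Rps3, the second member by count, had 388, 362, 431 and 401 CPM against 328, 359, 368 and 389 CPM (log2 0.13 ± 0.08, adjusted p = 0.19).

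**Figure D2:**
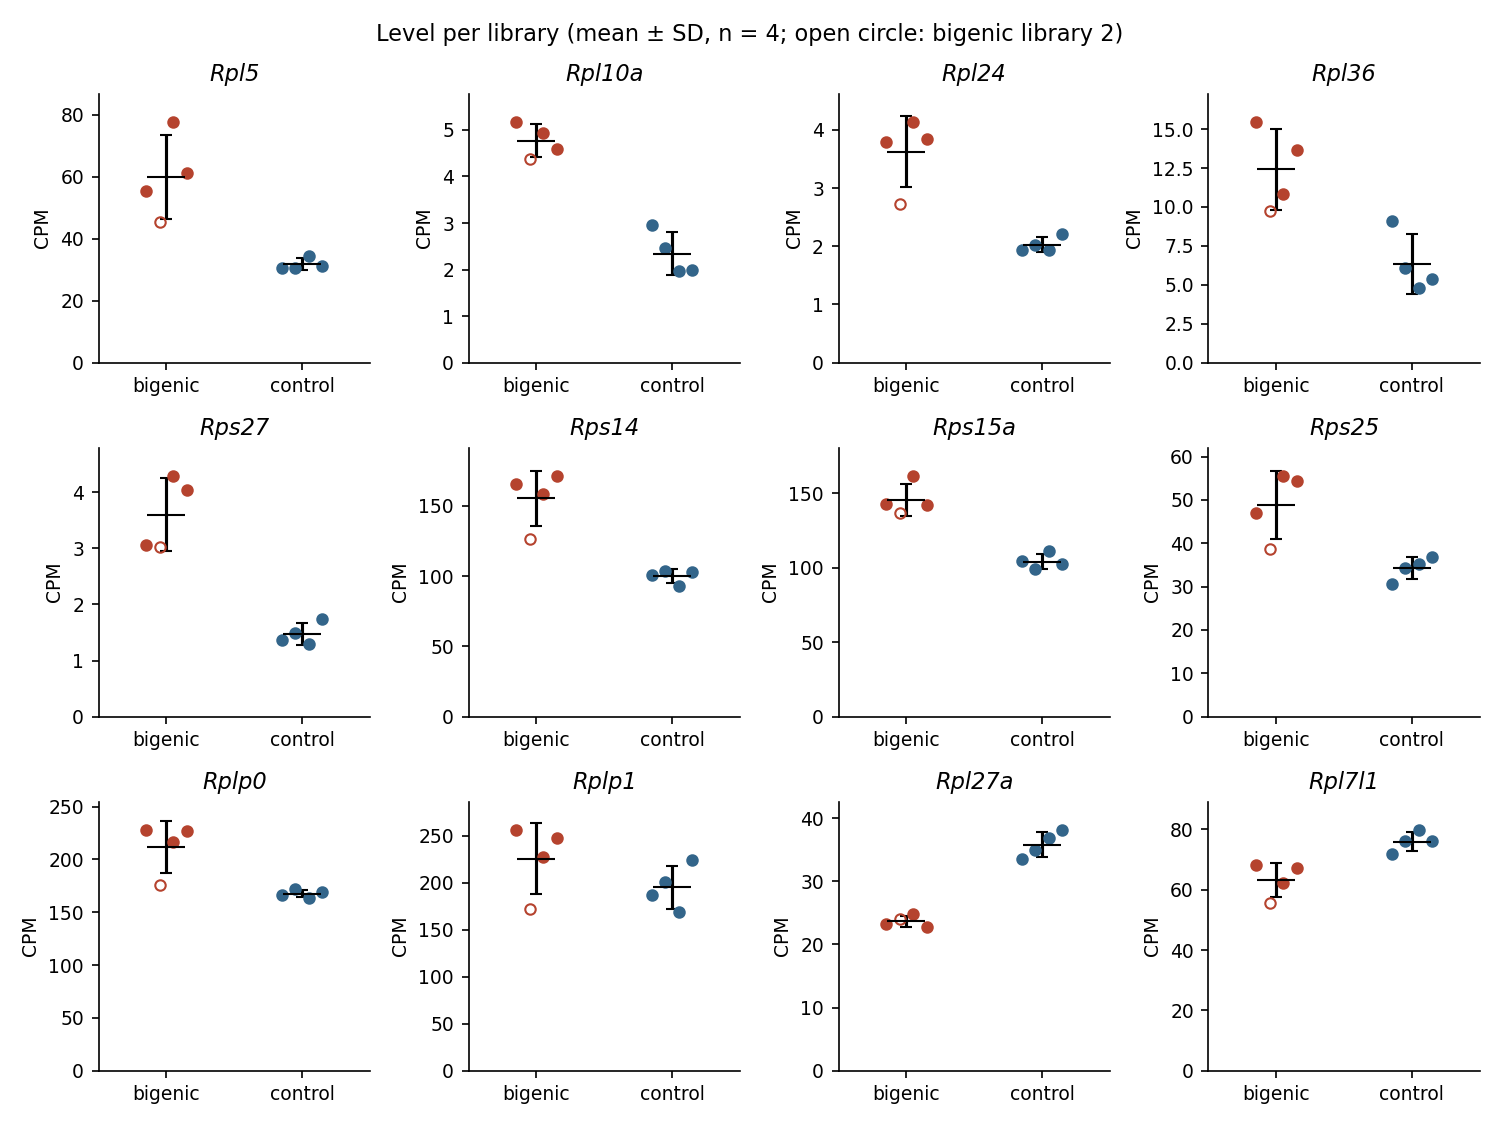
CPM (TMM-scaled, linear axes from 0) of 12 named members, 1 panel per gene, with a point for each of the 4 bigenic and 4 control libraries (open circle, bigenic library 2) and bars for the group mean and SD. Rpl27a is lower in every bigenic library, and Rpl5, Rps27 and Rps14 are higher in every bigenic library.

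The stalk proteins form the arm of the large subunit that recruits translation factors, and 1 of the 3 was higher. Rplp0, the base of the stalk, had 228, 176, 217 and 227 CPM in the bigenic libraries and 167, 172, 163 and 169 CPM in the controls (log2 0.34 ± 0.09, adjusted p = 0.0078). Bigenic library 2 was nearest to the controls but above them. Rplp1 had 256, 171, 227 and 248 CPM against 187, 200.3, 169 and 224 CPM (log2 0.21 ± 0.12, adjusted p = 0.19, and 0.47 by total counts). Its adjusted p was 0.015 without bigenic library 2. That library held its lowest bigenic value, so leaving it out was bound to raise the fold change, and no difference is read from that fit. Rplp2 had 23.2, 14.7, 18.6 and 22.7 CPM against 20.2, 18.7, 13.2 and 19.3 CPM (log2 0.15 ± 0.16, adjusted p = 0.48), with the groups mixed.

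The 5 paralogues are genes related to a core gene, and 88% to 100% of their transcript windows were found in no other gene. Rpl7l1 was the only one that was lower, at 68.2, 55.7, 62.3 and 67.1 CPM in the bigenic libraries against 71.7, 76.1, 79.7 and 76.2 CPM in the controls (log2 -0.26 ± 0.08, adjusted p = 0.020). The groups did not overlap, but the call was lost without control library 2 (adjusted p = 0.051) and without control library 3 (adjusted p = 0.058). Rpl22l1 was higher by TMM, at 23.5, 18.2, 24.1 and 25.5 CPM against 17.8, 17.9, 16.2 and 18.1 CPM (log2 0.38 ± 0.11, adjusted p = 0.015), and missed the threshold by total counts (adjusted p = 0.053). Rps27l had 17.1, 15.1, 24.7 and 17.996 CPM against 12.8, 17.0, 18.7 and 18.1 CPM (log2 0.17 ± 0.16, adjusted p = 0.42). Rps4l had 14.6, 12.8, 16.2 and 17.2 CPM against 14.7, 11.97, 12.1 and 15.7 CPM (log2 0.16 ± 0.13, adjusted p = 0.34). Rpl3l, a muscle paralogue of Rpl3, had 0.456, 0.298, 0.569 and 0.278 CPM against 0.242, 0.154, 0.222 and 0.0747 CPM and was not tested.

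The ratio of a paralogue to its core gene within a library does not depend on library scaling. The log2 ratio of Rps27l to Rps27 was 2.37 ± 0.17 (SD, n = 4) in the bigenic libraries and 3.48 ± 0.26 in the controls, a difference of -1.11. Of the transcript windows of Rps27, 1.48% were found in no other gene, against 88% for Rps27l. The part of shared reads in this ratio was not tested. The log2 ratio of Rpl7l1 to Rpl7 was -1.48 ± 0.16 against -0.94 ± 0.08, a difference of -0.54. For both pairs the groups did not overlap, and the exact two-sided permutation test gave p = 0.0286, the smallest that 4 against 4 libraries allow. Adjusted over the 6 pairs tested, both were 0.0858 by the exact test, so neither passed 0.05 and at this design at least 4 of the 6 pairs would have had to reach that p for any to pass. For Rpl36al over Rpl36a, Rpl3l over Rpl3, Rpl22l1 over Rpl22 and Rps4l over Rps4x the differences were 0.19, 0.90, 0.11 and 0.03, with adjusted p of 0.114, 0.171, 0.172 and 0.943 by the exact test.

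**Figure D3:**
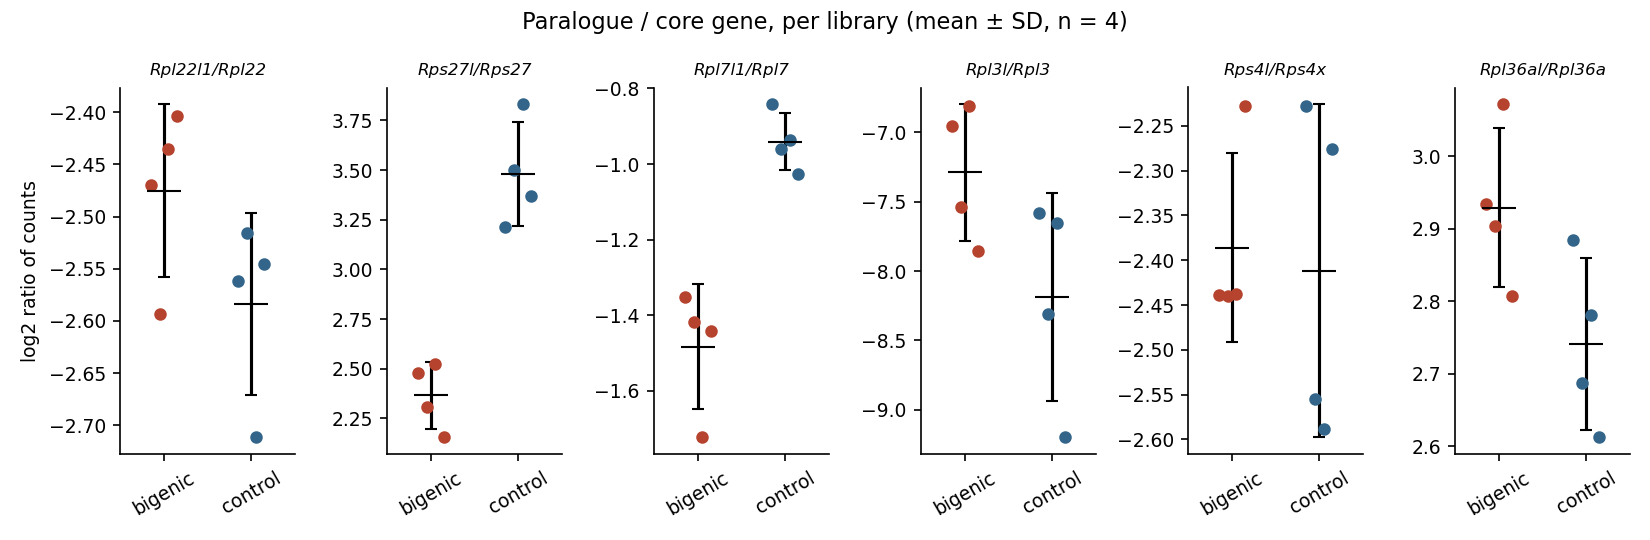
Log2 ratio of counts of each paralogue to its core gene in every library, for 6 pairs, with a point per library (red, bigenic; blue, control) and bars for the group mean and SD; each panel has its own axis, which does not start at 0. The bigenic and control points are separate for Rps27l over Rps27 and for Rpl7l1 over Rpl7.

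Members shared sequence with other genes' transcripts more often than genes in general. A transcript window was called a gene's own when its 75 bases occurred exactly in no other gene's transcript in GENCODE, which gives an upper bound because the rest of the genome was not searched. The median share of own windows was 56.9% for the 82 members and 100% for 10758 other genes, and 35 members (42.7%) were under 50% against 3.32% of other genes. Members were scored over all windows. The other genes, which met the same count rule, were scored over every 25th window of a main coding transcript. How reads that fit several places were counted is not given in the sources used here. The 35 tested members under 50% had 18 higher and 0 lower, with a median log2 fold change of 0.34, while the 46 with 50% or more had 15 higher and 2 lower, with a median of 0.22. The first set was also less abundant, with a median mean FPKM of 14.1 against 44.9. Across the 81 tested members, which share libraries and copies, Spearman's correlation of the share of own windows was 0.51 with FPKM and -0.30 with the log2 fold change.

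**Figure D4:**
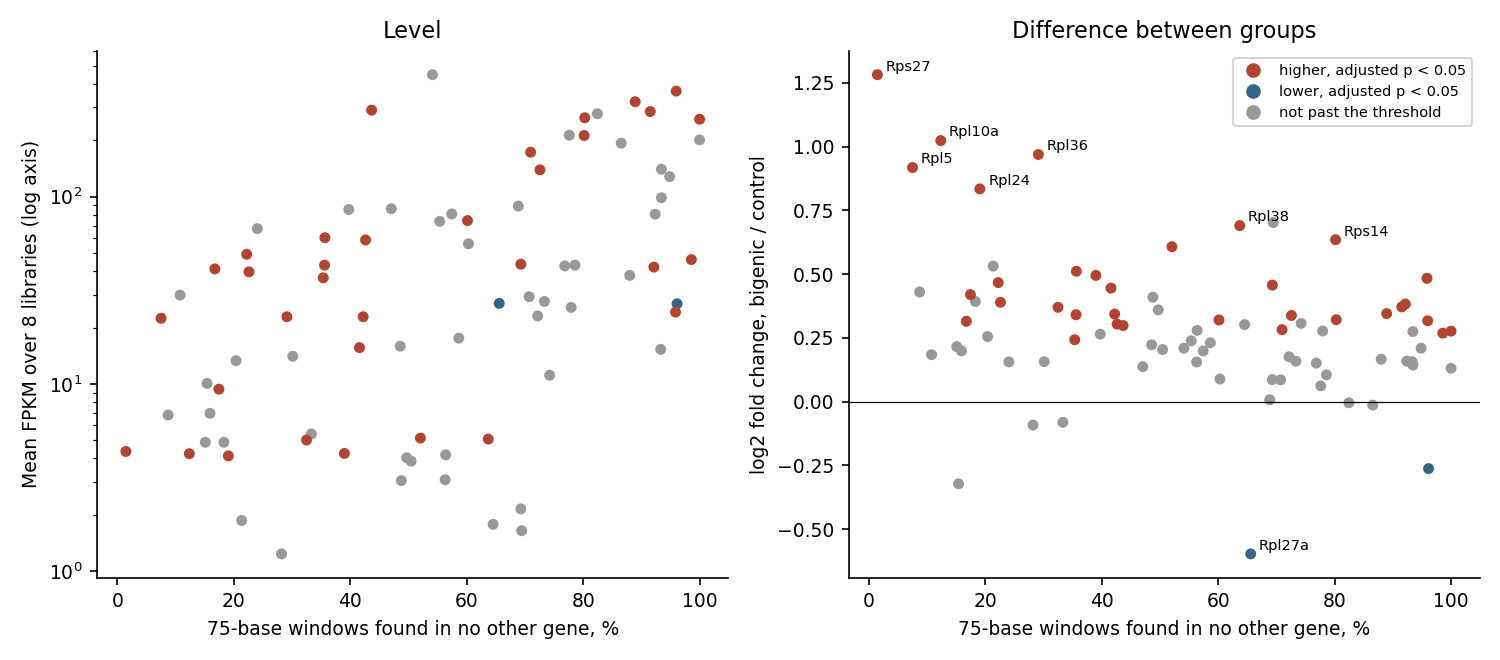
Mean FPKM over the 8 libraries (left, log axis) and log2 fold change, bigenic over control (right), of each tested member against the share of its 75-base transcript windows found in no other gene (percent), with red for higher, blue for lower and grey for the rest. Rps27 and Rpl5 lie at the left of the right panel, with 1.48% and 7.51%, and Rpl27a, its lowest point, lies at 65.6%.

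Levels spanned a wide range: mean counts ran from 10.25 for Rpl3l to 14852 for Rpl4, 12 members were under 100 and 11 were over 5000. The deposited lengths had a median of 717.5 bases, against 2910 for all genes tested.

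The share of all counted reads in member genes was 0.520%, 0.437%, 0.548% and 0.547% in bigenic libraries 1 to 4 and 0.426%, 0.454%, 0.448% and 0.493% in control libraries 1 to 4. The group means were 0.513% ± 0.0521 and 0.455% ± 0.0279 (SD, n = 4), and bigenic library 2 lay among the controls. As a share of TMM-scaled library size the means were 0.528% ± 0.0552 and 0.442% ± 0.0230. Exact 95% binomial intervals, which cover counting error only, were far narrower than the spread between mice: 0.435% to 0.439% for bigenic library 2.

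Bigenic library 2 stood apart from the other bigenic libraries. Its median member log2 level, relative to the control mean, was 0.03, against 0.30, 0.39 and 0.36 in bigenic libraries 1, 3 and 4 and -0.06 to 0.09 in the controls. It was the lowest bigenic library for 68 of 81 members and the highest for 0. In it 28 members lay above every control, against 59 to 66 in the other bigenic libraries. Control libraries varied too: in control library 4, 39 members lay above every other control, against 11 to 16 in control libraries 1 to 3. No share of all genes is given for these counts per library, so they cannot be read against all genes. Without it, 44 members were higher and 2 lower, beside 23.4% higher and 24.9% lower of all genes, with a median log2 fold change of 0.35 for the members. The groups then did not overlap for 51 higher members (24.8% of all genes). As it was the lowest bigenic library for most members, leaving it out was bound to raise most of their fold changes. That library also had the highest Malat1 (4125 CPM, against 3105 to 3340 in the other bigenic libraries and 1931 to 2317 in controls) and the highest summed granule cell markers (9028 CPM) and oligodendrocyte markers (6124 CPM); their part in the result was not tested.

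**Figure D5:**
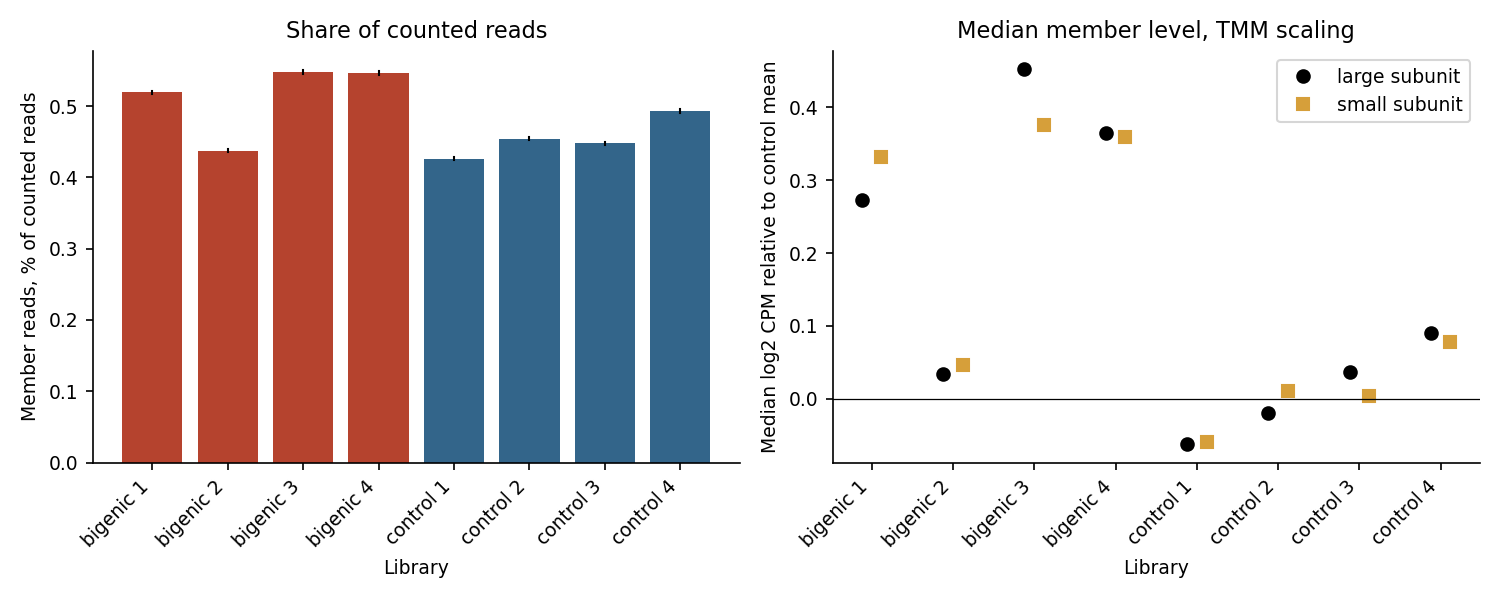
Share of counted reads in member genes for each of the 8 libraries (left, percent; red, bigenic; blue, control; bars start at 0, with exact 95% binomial intervals) and median log2 CPM relative to the control mean of the large and small subunit core genes (right). Bigenic library 2, at 0.437% on the left and at 0.03 and 0.05 on the right, lies near the controls in both panels.

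The control group held the 2 libraries with the most choroid plexus RNA. Without control libraries 2 and 3, 10 of 82 tested members were higher and 1 lower, beside 10.4% higher and 11.4% lower of all genes. The median log2 fold change of the members was 0.27. With the log2 level of Ttr as a covariate, 5 of 81 were higher and 1 lower, beside 8.41% and 11% of all genes, and the median was 0.23. The share of members called higher was thus near that of all genes without these libraries, and below it with the covariate. The 5 genes higher under every one of the 19 alternatives were Rpl5, Rpl10a, Rps14, Rps15a and Rps27, and Rpl27a was the 1 gene lower under each. The calls of Rpl24, Rpl36, Rps25, Rps15, Rpl38, Rplp0, Rpl32, Rpl8, Rpl4, Rpl22l1 and Rpl7l1 were lost in at least 1, and every one of them missed the threshold with Ttr in the model (adjusted p from 0.062 for Rpl38 to 0.24 for Rpl4). Their standard errors were larger in that fit, and the direction was the same for each. With Ttr in the model the log2 fold change of Rpl36 was 1.00 ± 0.35 (0.97 ± 0.21 without it), that of Rplp0 was 0.33 ± 0.14 (0.34 ± 0.09) and that of Rpl4 was 0.29 ± 0.17 (0.37 ± 0.11). The levels of nuclear long noncoding RNAs also differed, with 3 of 9 higher and summed levels of 4058 to 5068 CPM in the bigenic against 2616 to 3097 CPM in the control libraries. The part of these RNAs, and of the higher astrocyte markers, in the result was not tested.

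Some lists of other cell types were mixed in direction, while the called choroid plexus, microglia, erythroid and leukocyte markers were all lower. All genes tested had 21.4% higher and 22.9% lower by TMM. Of 12 granule cell markers 3 were higher and 2 lower, of 12 Purkinje cell markers 2 and 0, of 12 oligodendrocyte markers 3 and 5, of 12 endothelial and mural markers 1 and 2, and of 11 tested meningeal fibroblast markers 1 and 5. By total counts these became 3 and 5, 1 and 0, 2 and 5, 1 and 2, and 0 and 5. Of 12 microglia markers 0 were higher and 5 lower, with summed levels of 150 to 182 CPM in the bigenic and 202 to 238 CPM in the control libraries. Of the choroid plexus markers 12 of 14 were lower and 0 higher, of the erythroid markers 2 of 3 tested lower, and of the leukocyte markers 3 of 5 tested lower. The lower erythroid genes, Slc4a1 and Alas2, had low group means of 0.838 and 1.39 CPM in bigenic against 1.46 and 6.75 CPM in control libraries. The summed erythroid levels overlapped, at 88.5 to 113 CPM in the bigenic and 90.8 to 105 CPM in the control libraries. The globin genes Hba-a1, Hba-a2, Hbb-bs and Hbb-bt were listed at 0 in all 8 libraries.

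Other genes of translation were read beside the members. For the lists from here on, all genes tested had 21.4% higher and 22.9% lower by TMM, and 16% and 28.8% by total counts. Of 41 tested genes for translation factors and other TOP messages, 15 were higher and 2 lower, with a median log2 fold change of 0.18 (13 and 4 by total counts, median 0.10). Eef1d, a subunit of the elongation factor that recharges eEF1A, rose from 87.0 ± 4.83 to 180 ± 24.1 CPM (SD, n = 4; log2 1.05 ± 0.10 SE, adjusted p = 2.2e-05). Eif1 (log2 0.73 ± 0.09), which helps select the start codon, and Eif3f (0.54 ± 0.07) also rose. Of 12 tested hosts of small nucleolar RNAs, which guide ribosomal RNA modification, 10 were higher and 1 lower, with a median of 0.69 (9 and 1 by total counts). Snhg1 rose from 19.8 ± 1.42 to 46.1 ± 12.8 CPM (log2 1.22 ± 0.16, adjusted p = 0.00018), and Snhg12 and Snhg11 rose by 0.76 ± 0.10 and 0.56 ± 0.08.

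Genes that build ribosomes did not share one direction. Of 68 tested ribosome assembly genes 15 were higher (22.1%) and 12 lower (17.6%), beside 21.4% and 22.9% of all genes. The share higher was thus near that of all genes. The median of the list was 0.05 and became -0.03 by total counts (10 higher and 19 lower). Heatr1 (log2 -0.72 ± 0.08, adjusted p = 4.5e-05), Noc3l (-0.77 ± 0.09, adjusted p = 8.6e-05) and Ltv1 (-0.74 ± 0.10, adjusted p = 0.00022), which act in ribosomal RNA processing and subunit maturation, were lower. Ncl, the nucleolar protein nucleolin, was higher, at 104 ± 11.9 CPM against 69.3 ± 5.93 CPM (SD, n = 4; log2 0.59 ± 0.09, adjusted p = 0.00058). Of 16 genes for RNA polymerase I, which transcribes ribosomal RNA, and its factors, 4 were higher (25%) and 5 lower (31.2%). Their median was -0.04, against 1 higher and 6 lower by total counts with a median of -0.13. Polr1d (-0.51 ± 0.07, adjusted p = 0.00023) and Polr1b (-0.56 ± 0.09, adjusted p = 0.00054) were lower, the latter with an adjusted p of 0.055 with the Ttr covariate.

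Of 25 tested TOP regulators and mTORC1 genes, 8 were higher (32%) and 2 lower (8%), beside 21.4% and 22.9% of all genes. Their median was 0.14 (8 and 3 by total counts, median 0.06). Ddit4 (log2 1.55 ± 0.16, adjusted p = 4.3e-05) and Sesn1 (0.82 ± 0.10, adjusted p = 8.9e-05) encode inhibitors of mTORC1 signalling, and Mycl (0.95 ± 0.10, adjusted p = 6.5e-05) encodes a Myc family transcription factor. Of 12 genes of the p53 checkpoint that ribosome stress can engage, 4 were higher (33.3%) and 0 lower. Their median was 0.16, against 4 higher and 2 lower by total counts with a median of 0.07. The cell cycle inhibitor gene Cdkn1a rose from 5.38 ± 0.694 to 51.1 ± 8.38 CPM (log2 3.25 ± 0.14, adjusted p = 5.3e-07). Of 17 ribosome rescue genes, 1 was higher (5.88%) and 3 lower (17.6%), with a median of -0.10, against 0 and 7 by total counts (median -0.19). The 74 genes for mitochondrial ribosomal proteins, which translate within mitochondria, had 12 higher and 28 lower with a median of -0.12 (8 and 32 by total counts), against 33 and 2 of 81 with a median of 0.28 for the cytosolic members; the difference between the lists was not tested.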

How the data were processed

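Whole-cerebellum RNA from 8 mice (4 bigenic, 4 control) was sequenced in bulk. The authors deposited whole-number read counts per gene and FPKM values, which were found to be the same counts scaled by gene length and library total. Per the submitters' processing notes, STAR, HTSeq and the mm10 build were used, with versions and strand setting not given in the sources used here. The labels disagree on the extraction and library kits. The main test was edgeR 4.0.16 under R 4.3.3 (filterByExpr on group, TMM, robust quasi-likelihood F test, Benjamini-Hochberg over 15186 genes, threshold 0.05), run again with total-count scaling. Standard errors of the main fit were derived from its test, as the size of the log2 fold change divided by the square root of the F value. Alternatives used DESeq2 1.42.0, limma 3.58.1 on log2(FPKM + 1) or log2(FPKM + 0.1) of the deposited FPKM, and others named below. Sequences and coordinates are from RefSeq (GRCm38.p6) and GENCODE M21; all 85 member symbols matched. The fit was tested on simulated data.

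The members and gene lists were chosen with earlier results of these data known. Genes given in full were the 5 with the smallest p in each direction among called core genes of each subunit, all stalk genes and paralogues, and the 3 with the highest FPKM per subunit; other lists named up to 4 with the smallest p. Most members are given by counts and ranges, and a few values are not reported here. Replicates are separate mice per the labels.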

Additional observations from a re-analysis of the deposited data

Results flagged for a closer look

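A gap to the nearest other library that was wide for the range of its group was found in 2 of 60 groups of 4 libraries checked, where chance gives about 1 in 20. For Rpl22l1, control library 3 had 16.16 CPM, below the 17.81 to 18.06 CPM of the other controls. For the log2 ratio of Rps4l to Rps4x, bigenic library 4 had -2.227, above the -2.44 to -2.438 of the other bigenic libraries.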

How the results depend on the processing

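Of the 19 alternatives, members higher (33 with TMM) numbered 19 with total counts, 15 with log2(FPKM + 1) and no filter (10.1% of all genes), 10 without control libraries 2 and 3 and 5 with the Ttr covariate, and ranged from 19 to 44 when 1 library was left out (19 without bigenic library 4; 16.6% to 23.4% of all genes). Members lower (2) numbered 1 without control libraries 2 and 3 and with the Ttr covariate, and 1 to 3 when 1 library was left out. With total counts, 19 higher and 3 lower became 6 and 1 without control libraries 2 and 3. They ranged from 11 to 34 and from 2 to 3 when 1 library was left out (34 without bigenic library 2). No share of all genes is given for these total-count fits, so their counts cannot be read against all genes. An offset for gene length and GC content gave 46 higher (26.5% of all genes, against 21.4% without it). The median log2 fold change stayed between 0.17 and 0.35. The cause was not tested. The log2 ratio of Rps4l to Rps4x turned to -0.134 without control libraries 2 and 3 and ranged from -0.03297 to 0.08699 when 1 library was left out, negative without bigenic library 4 (-0.02709) or either of control libraries 2 (-0.022) and 3. Log2 fold changes turned negative for Rplp2 with the Ttr covariate (-0.0115), Rps27l without bigenic library 3 (-0.002629; range to 0.2566 when 1 library was left out), Rps4l without control libraries 2 and 3 (-0.005791) and with the Ttr covariate (-0.09066), and Rps9 with total counts (-0.02289), log2(FPKM + 1) (-0.02305, also without the filter) and log2(FPKM + 0.1) (-0.02315). Of the named genes' values under alternatives, 705 kept direction and call, 39 lost the call, 8 gained it and 8 turned sign. The labels do not say that replicate numbers pair the mice, and same-number correlations were 0.064 to 0.373. With the replicate number as a block, 38 members were higher and 2 lower, beside 24% higher and 25% lower of all genes. With total counts the block gave 24 and 3 members, with no share of all genes given. Of the 4 bigenic libraries, 3 correlated best with the control of their own number, a hint from the data and not the design.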
